A study of Mus musculus with 4 samples.

Results

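The genes described here are 10 mouse genes whose products cap the ends of muscle thin filaments or hold those filaments at the Z-disc: Capza1, Capza2, Capzb, Tmod1, Tmod4, Lmod2, Lmod3, Actn2, Actn3 and Nexn. They were taken by name, through their Ensembl identifiers, from the 40137 gene units of the deposited tables, and all 10 were found. RNA had been sequenced from thigh skeletal muscle of wild-type male C57BL/6J mice, an inbred strain, aged 28 months (3 libraries) or 18 months (1 library), with no treatment named. The sequencing served to re-examine splicing differences seen before on exon arrays. The labels do not tie the libraries to separate animals, so p-values measure only the spread between these samples, which may be technical.

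Each table held raw counts per exonic bin, that is, per stretch of exon delimited by annotated exon ends. The total was 67279205 to 76163175 counts per library at 28 months and 65780464 counts at 18 months. The extraction text of the labels describes epidermal cells of skin, but 8 skeletal muscle fibre markers reached 102861 to 205088 CPM (counts scaled to the TMM-adjusted library size) in sum at 28 months and 116334 CPM at 18 months. The sum of 8 keratinocyte markers, 2 of which had no count, was 12.8 to 18.3 CPM at 28 months, with 16.3 CPM at 18 months. 28-month replicate 2 stood apart from the other 28-month libraries. Its fibre markers summed to 102861 CPM, against 196689 and 205088 CPM in replicates 1 and 3, and its 5 measured fibroblast markers to 2624 CPM, against 971 and 1519 CPM. In such bulk samples, fewer cells of a type and less RNA per cell cannot be told apart.

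In striated muscle the actin filaments run from the Z-disc towards the middle of the sarcomere. Capping protein, or CapZ, a dimer of an alpha and a beta subunit, blocks their barbed ends at the Z-disc. Tropomodulins cap the opposite, pointed ends, and the related leiomodins promote actin assembly there. Alpha-actinins cross-link the filaments of neighbouring sarcomeres at the Z-disc, where nexilin, an actin-binding protein, is also found.

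None of the 10 genes differed in gene level between 28 and 18 months beyond the spread of the libraries. The edgeR quasi-likelihood test on gene sums called 0 of 10, with Benjamini-Hochberg adjusted p between 0.859 and 0.998. It also called 0 of 15376 genes in all (0%), of which 753 (4.9%) had an unadjusted p under 0.05. The DESeq2 Wald test called 34 of the 15376 (0.221%) and 0 of the 10. For 4 of the 10 the 18-month library was above all 28-month libraries (26.4% of all genes tested) and for 0 of the 10 it was below all of them (25.4%), so that 4 of 10 lay outside the 28-month range, against 51.8% of all genes. The fold changes had a median log2 of -0.14 over the 10 genes and 0.06 over all genes tested, where a positive value means higher at 28 months.

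**Figure D1:**
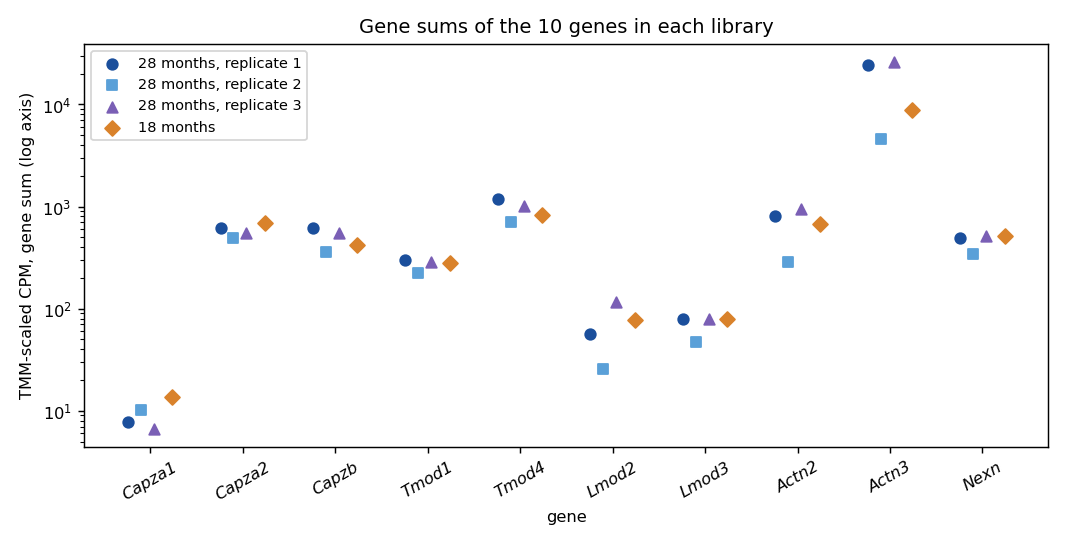
TMM-scaled CPM of gene sums (log axis) for the 10 genes, 1 point per library, with the 3 libraries at 28 months left of the library at 18 months. Actn3 spans 4553 to 25887 CPM within the 28-month group, and its 18-month value of 8813 CPM lies inside that range.

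The subunits of capping protein, which closes the barbed ends, were led by Capza2 and Capzb. Capza2 (chr6:17636234-17666972, GRCm38, plus strand), an alpha subunit, had 616, 491 and 554 CPM in 28-month replicates 1, 2 and 3, against 683 CPM at 18 months. The 18-month library was the highest of the 4, and the log2 difference was -0.30 ± 0.34 (SE, adjusted p = 0.898 in edgeR). Capzb (chr4:139192899-139291818, plus strand), the beta subunit, had 615, 355 and 553 CPM at 28 months, with 417 CPM at 18 months. The groups overlapped, with replicate 2 the lowest library, and the log2 difference was 0.29 ± 0.44 (SE, adjusted p = 0.920 in edgeR).

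Capza1 (chr3:104822779-104864505, minus strand), the other alpha subunit, had 7.68, 10.2 and 6.69 CPM at 28 months, against 13.6 CPM at 18 months. The 18-month library was again the highest, with a log2 difference of -0.73 ± 0.34 (SE, adjusted p = 0.859 in edgeR). With the highest bin of each gene in place of the gene sum, and scaling recomputed on those bins, the difference was -0.30. Kept on the scaling of the gene sums, the 18-month level of that Capza1 bin, 13.3 CPM, exceeded every 28-month library. The nearest of these, replicate 2, reached 9.76 CPM. The level is uncertain. Nearly all counts of Capza1 lay in bin 1, the last bin in transcript order, with 501, 952 and 396 counts at 28 months and 865 counts at 18 months. Its other 11 bins together held 12, 47 and 8 counts at 28 months and 19 counts at 18 months. The pseudogene Gm3608 on chromosome 1 matches 2859 of the 3193 bases of the longest coding transcript at 99.5% identity, and it carried 321, 781 and 308 counts at 28 months and 650 counts at 18 months. How the counting divided reads between the copies is not given in the sources used here.

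At the pointed ends, the muscle tropomodulin Tmod4 had the highest level. Tmod4 (chr3:95124476-95129209, plus strand) had 1180.0, 708 and 1021 CPM at 28 months, with 822 CPM at 18 months. The 18-month value lay inside the 28-month range, with a log2 difference of 0.24 ± 0.44 (SE, adjusted p = 0.934 in edgeR). Tmod1 (chr4:46038935-46116032, plus strand), the tropomodulin also found in heart and red blood cells, had 299, 221.6 and 289 CPM at 28 months, with 282 CPM at 18 months. The groups overlapped here too, at a log2 difference of -0.07 ± 0.34 (SE, adjusted p = 0.976 in edgeR). The 5 red blood cell markers together had 378, 145 and 3785 CPM at 28 months, against 183 CPM at 18 months, and their part in the Tmod1 level was not tested.

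The leiomodins had lower levels than both tropomodulins, also per kilobase. Lmod2 (chr6:24597762-24605414, plus strand), known for its role in heart and skeletal muscle, varied most among the pointed-end genes, with 56.3, 25.5 and 116 CPM at 28 months, with 78.1 CPM at 18 months. The 18-month value fell between the 28-month replicates, at a log2 difference of -0.24 ± 0.79 (SE, adjusted p = 0.964 in edgeR). Lmod3 (chr6:97238534-97252759, minus strand), whose loss causes nemaline myopathy in humans, a muscle disease with rod-like bodies, had 78.7, 46.7 and 79.2 CPM at 28 months, with 79.6 CPM at 18 months. Replicate 2 was the lowest library, the other 3 lay close together, and the log2 difference was -0.22 ± 0.39 (SE, adjusted p = 0.931 in edgeR).

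At the Z-disc, Actn3, the alpha-actinin of fast fibres, had the highest level in every library, also per kilobase, and the widest fold range between libraries. Actn3 (chr19:4861216-4877909, minus strand) had 24467, 4553 and 25887 CPM at 28 months, with 8813 CPM at 18 months. Replicates 1 and 3 were far above the 18-month library and replicate 2 was below it, so that the log2 difference of 1.05 ± 1.13 had an adjusted p of 0.894 in edgeR. Without replicate 2 it was 1.54 ± 0.14 (SE, adjusted p = 0.0151 in edgeR). That fit took its spread from the 2 remaining 28-month libraries, called 11.9% of 15133 genes, and also called Capza1, at a log2 difference of -0.90 with an adjusted p of 0.0364.

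Actn2 (chr13:12269426-12340760, minus strand), the alpha-actinin of all striated muscle fibres, had 807, 286 and 943 CPM at 28 months, with 682 CPM at 18 months. The libraries at 28 months lay on both sides of the 18-month value, and the log2 difference was -0.01 ± 0.71 (SE, adjusted p = 0.998 in edgeR). Nexn (chr3:152236982-152266350, minus strand), which encodes nexilin, had 490.0, 345 and 510 CPM at 28 months, with 520 CPM at 18 months. The 18-month library was just above the highest of the others, with a log2 difference of -0.21 ± 0.38 (SE, adjusted p = 0.931 in edgeR). For all 3 Z-disc genes, as for every other member except Capza1, the lowest library was 28-month replicate 2. That library also had the lowest fibre marker sum, whose part in these values was not tested.

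Per kilobase of the longest coding transcript, Actn3 was first, Tmod4 second and Capza1 last in each of the 4 libraries. Actn3 averaged 6340 CPM per kb at 28 months and 3053 CPM per kb at 18 months, and Tmod4 averaged 770 CPM per kb at 28 months and 652 CPM per kb at 18 months. Capzb, Actn2, Capza2 and Nexn followed, with 28-month means of 298, 225, 218.3 and 175 CPM per kb and 18-month values of 245, 226, 269 and 202.7 CPM per kb in the same gene order. The order of these 4 changed between libraries. Tmod1 came next, at 85.4 CPM per kb at 28 months and 89.4 CPM per kb at 18 months. Lmod2 and Lmod3 were close, at 33.4 and 30.8 CPM per kb at 28 months and 39.5 and 35.9 CPM per kb at 18 months, and changed places between libraries. A gene sum may count a fragment once in each bin it spans, since how bins were counted is not given. With only the highest bin of each gene, Actn3 stayed first and Capza1 last in each library, and Capza2 was second.

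Ratios between 2 genes of a library do not depend on its scaling. Actn3 over Actn2, the fast alpha-actinin over the general one, was 31.6, 16.6 and 28.6 per kb at 28 months, against 13.5 at 18 months. The 18-month ratio was below every 28-month ratio, replicate 2 included, and an exact two-sided permutation test gave p = 0.25 (adjusted p = 0.75 over 6 ratios), the smallest p that 3 libraries against 1 allow. Capzb over Capza2, beta over alpha subunit, was 1.49, 1.08 and 1.49 at 28 months, against 0.909 at 18 months (exact permutation p = 0.25, adjusted p = 0.75). Tmod4 over Tmod1 was 9.91, 8.01 and 8.85 at 28 months, against 7.29 at 18 months (exact permutation p = 0.5, adjusted p = 1). In these 3 pairs the 18-month ratio was the lowest of the 4 libraries. With the highest bin of each gene, Tmod4 over Tmod1 was 1.65, 1.50 and 1.50 at 28 months and 0.826 at 18 months. Capzb over Capza2 was then 0.550, 0.467 and 0.557 at 28 months and 0.335 at 18 months. Both were again lowest at 18 months. However, the highest bins of Tmod1 and Capza2 are the last at the 3′ end. They held 41.5 and 34.1% of their gene's counts at 18 months, against means of 25.2 and 22.6% at 28 months. The part of this in the highest-bin ratios was not tested. Lmod3 over Lmod2 was 1.25, 1.63 and 0.609 at 28 months and 0.908 at 18 months, with overlap. The remaining ratios overlapped as well. Capza2 over Capza1 was 101, 60.4 and 104 at 28 months and 63.3 at 18 months, and Tmod4 over Capzb was 2.59, 2.69 and 2.49 at 28 months and 2.66 at 18 months. The pairs follow the families, and which libraries were high was known when they were described.

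**Figure D2:**
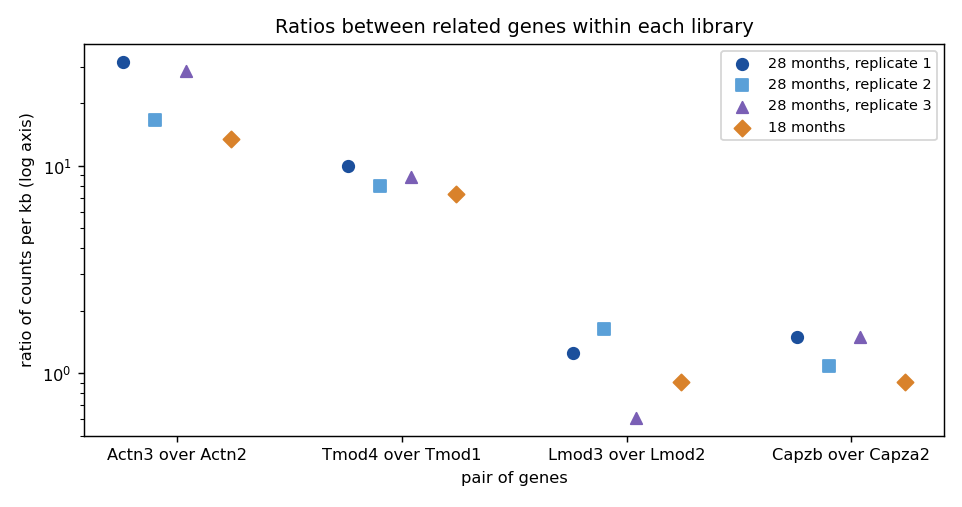
Ratio of counts per kb (log axis) for 4 pairs of related genes, 1 point per library, with 28 months left of 18 months in each pair. The 18-month point is the lowest for Actn3 over Actn2 (13.5), Tmod4 over Tmod1 (7.29) and Capzb over Capza2 (0.909), and lies within the 28-month range for Lmod3 over Lmod2 (0.908).

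Exon usage, the share of a gene's counts that falls in each bin, did differ for some of these genes. The edgeR diffSpliceDGE test with Simes p-values called 3 of the 10, Capzb (adjusted p = 1.09e-10), Tmod4 (adjusted p = 0.000352) and Tmod1 (adjusted p = 0.00489), where it called 389 of 11000 genes tested (3.54%). Of the 179 bins of the 10 genes, 140 had a mean of at least 10 counts and were tested. The test called 5 of the 140, or 3.57%, against 0.366% of 143485 bins in all. Capzb bin 5 and Tmod1 bin 2 were used more at 28 months (background 0.208%), and Capzb bin 27, Tmod4 bin 15 and Actn2 bin 19 were used less (background 0.158%). Both bins used more lay at the 5′ end of their gene. Of those used less, 2 were intron sequence beside an exon, and the place of the one in Actn2 is not known. Without replicate 2 the gene test called 7 of the 10, where it called 30.5% of all genes tested. Capza1 was not among the genes tested in that fit. Bins could be placed on the genome for Capza2, Capzb, Tmod1, Tmod4, Lmod2 and Lmod3, whose number of bins equals that of the GENCODE M21 annotation, and not for the other 4 genes. An equal number does not prove the placement.

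The 18-month library also differed from the others in how counts lay along most genes. Among 8227 genes with 6 or more tested bins, the median share of counts on the 5′ side of the middle of those bins was 33.7, 35.9 and 34.1% at 28 months, against 26.2% at 18 months, and it was lowest at 18 months in 79.3% of genes. All 7 of the 10 genes with enough bins followed. Capza2 had 29.9, 31.1 and 30.3% of its counts there at 28 months and 21.5% at 18 months. The gap was narrowest in Tmod4, at 42.0, 42.7 and 41.5% at 28 months and 41.1% at 18 months. The part of this shift in the differences of single 5′ or 3′ bins was not tested.

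**Figure D3:**
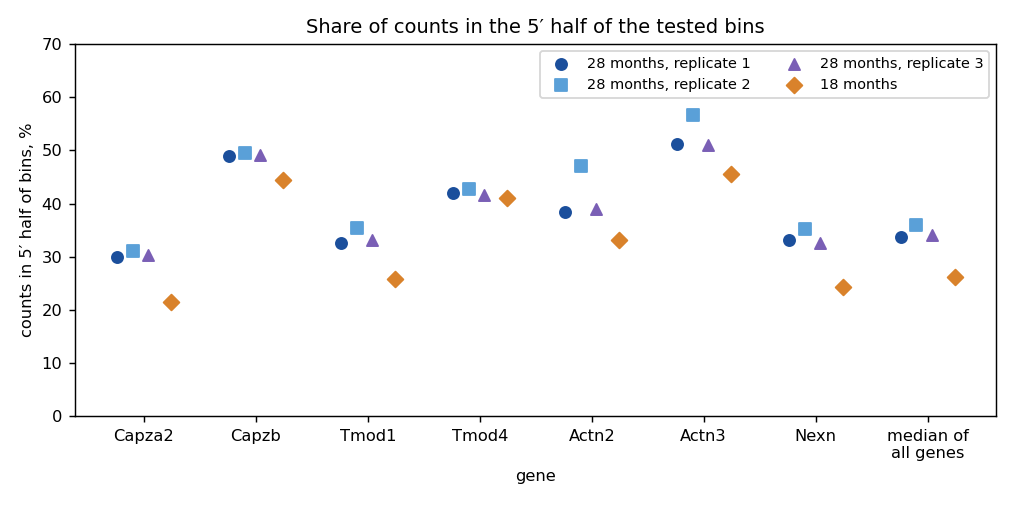
Share of counts (%) on the 5′ side of the middle of the tested bins for the 7 genes with 6 or more such bins and for the median of 8227 genes, 1 point per library. The 18-month point is the lowest in each column, from 21.5% in Capza2 to 45.6% in Actn3.

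Capzb carries the best known isoform choice of the family. An alternative exon near its 3′ end, bins 25 and 26, separates the beta1 subunit of the muscle Z-disc from the beta2 subunit of other cells. It is in transcript Capzb-203 (277 codons) and not in Capzb-204 (272 codons). The exon is shown whole because it decides the C-terminal end of the protein. It lies at chr4:139288861-139288973 (GRCm38, plus strand, sequence from GENCODE M21 transcripts), and capitals mark the stop codon inside it, after 100 coding bases.
Capzb alternative exon: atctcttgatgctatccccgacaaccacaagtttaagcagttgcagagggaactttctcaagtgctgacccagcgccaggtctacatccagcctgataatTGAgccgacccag

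The usage of this muscle exon gave no call, and its direction depended on the neighbour it was set against. Bin 25, its first 85 bases, had 3317, 2439 and 2561 counts at 28 months and 1986 counts at 18 months. Relative to bin 24, the exon bin before it, that was 98.5, 87.1 and 93.4% at 28 months and 112% at 18 months, the highest of the 4 libraries. Relative to the mean of bin 24 and bin 29, the next exon bin with many counts, it was 76.8, 63.7 and 73.0% at 28 months and 57.9% at 18 months, the lowest. The usage of bins 25 and 26 differed by log2 0.07 and 0.23, each with an adjusted p of 1.00 in diffSpliceDGE.

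Directly behind that exon lies the bin with the strongest call of the 10 genes. Bin 27 (chr4:139288974-139288991) adds 18 bases on the intron side, annotated in the non-coding transcript Capzb-207. The exon end and the bin are shown together, with bin 27 in capitals. It opens with the letters GT, those of a usual 5′ splice site.
Capzb bins 26 and 27: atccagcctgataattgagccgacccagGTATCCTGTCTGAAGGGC

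Bin 27 had 1, 3 and 0 counts at 28 months, against 188 counts at 18 months. That was 0.00244, 0.00866 and 0% of the gene's counts at 28 months, against 0.693% (exact 95% interval 0.598 to 0.799%, counting error only) at 18 months. The pooled 28-month share was 0.00529 of the 18-month share (exact 95% interval 0.00143 to 0.0138, counting error only), with an adjusted p of 5.59e-11 in diffSpliceDGE. Relative to bin 26, the bin held 0.0386, 0.165 and 0% at 28 months and 13.8% at 18 months. The 28-month libraries thus had at most 3 counts each in these 18 bases. The other bin particular to Capzb-207, bin 28, had 1, 5 and 2 counts at 28 months, against 0 counts at 18 months, too few to be tested. Bin 28 was thus not higher at 18 months, and whether the transcript as a whole followed bin 27 was not tested.

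A second intron piece of Capzb, bin 12 (chr4:139238999-139239171), found in the retained-intron transcripts Capzb-205 and Capzb-211, had 0, 0 and 0 counts at 28 months, against 36 counts at 18 months. The 0 counts of the 3 libraries together allow a share of up to 0.00275%, against 0.133% at 18 months. The bin was too low to be tested and was picked after its values were seen.

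At the 5′ end, Capzb bin 5 (chr4:139192969-139193028), the end of the first exon used in these libraries, had 463, 292 and 387 counts at 28 months, against 20 counts at 18 months. Its share was 1.13, 0.842 and 1.16% at 28 months, against 0.0737% at 18 months, higher in 3 of 3 libraries at 28 months. The log2 difference in usage was 3.85 (adjusted p = 8.45e-05 in diffSpliceDGE). The other annotated starts of Capzb, in bins 6 to 10, held at most 1 count per bin in any library, so no shift to another first exon was seen. Capzb was called for exon usage in all 9 settings run.

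**Figure D4:**
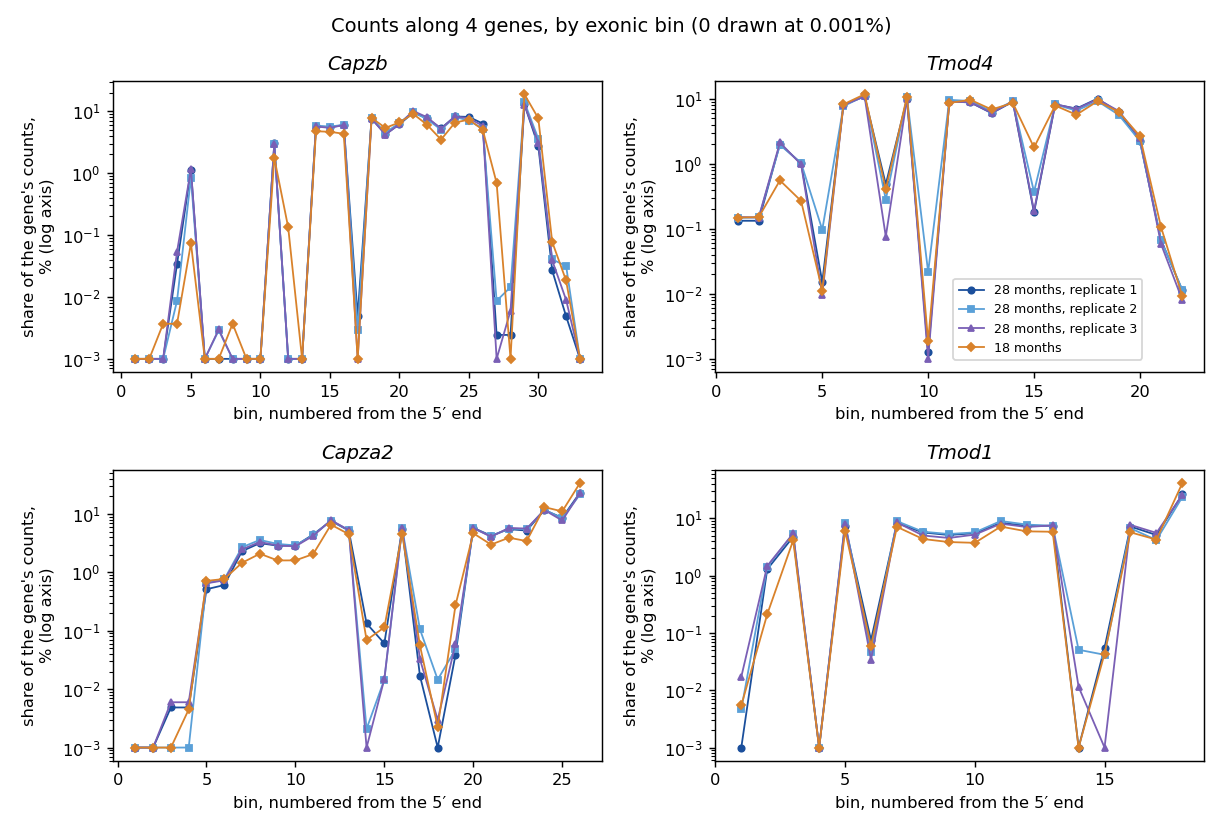
Share of each gene's counts (%, log axis, 0 drawn at 0.001%) by bin from the 5′ end for Capzb, Tmod4, Capza2 and Tmod1, 1 line per library. The 18-month share lies outside the 28-month range in most tested bins of each gene. How often this holds over all tested bins is not given here, so it is not read as a trait of these genes. The called bins are Capzb bins 5 and 27, Tmod4 bin 15 and Tmod1 bin 2, at 0.0737, 0.693, 1.79 and 0.212% at 18 months. Bins not called also part, such as Capzb bin 12, Capza2 bin 19 and Tmod4 bins 3 and 4.

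Tmod4 showed counts inside an intron at 18 months. Bin 15 (chr3:95127720-95127803, GRCm38, plus strand) is an 84-base intron, present as exon only in the retained-intron transcript Tmod4-206. It is shown with 30 bases of exon on either side and the intron in capitals, which starts with GT and ends with AG.
Tmod4 bin 15 and its flanks: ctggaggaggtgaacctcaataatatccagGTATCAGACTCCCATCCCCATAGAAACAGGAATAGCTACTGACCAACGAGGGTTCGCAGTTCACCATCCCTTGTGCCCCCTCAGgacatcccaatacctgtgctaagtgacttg

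The intron had 141, 256 and 117 counts at 28 months, against 957 counts at 18 months. Its share of the gene's counts was 0.179, 0.371 and 0.190% at 28 months, against 1.79% at 18 months, and the log2 difference was -2.95 (adjusted p = 0.000184 in diffSpliceDGE). Relative to the mean of the exon bins on both sides it held 2.07, 4.26 and 2.18% at 28 months, against 21.6% at 18 months. All 3 libraries at 28 months were lower, replicate 2 being the closest. The other retained-intron piece of the gene, bin 8, did not separate the ages: it had 4.88, 2.68 and 0.759% of the counts of bin 9 at 28 months and 3.74% at 18 months. Without replicate 3 the call of bin 15 was lost (adjusted p = 0.0712), as was that of the gene without replicate 1 (adjusted p = 0.0518) or replicate 3 (adjusted p = 0.122).

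Retained-intron pieces were also measured over all placed genes, to set beside this result. In 2873 genes with such bins their median share was 0.0695, 0.341 and 0.0785% at 28 months, against 0.348% at 18 months. The 18-month library was thus close to 28-month replicate 2 over all genes. In Tmod4 the 2 pieces together made 0.665, 0.653 and 0.266% at 28 months and 2.19% at 18 months. The share was highest at 18 months in 39.4% of the 2873 genes, and the part of this general level in the Tmod4 and Capzb pieces was not tested.

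Tmod1 differed at its 5′ end. Bin 2 (chr4:46039209-46039309), a non-coding part of the first exon of Tmod1-201, had 258, 311 and 258 counts at 28 months, against 39 counts at 18 months. The share was 1.29, 1.44 and 1.48% at 28 months, against 0.212% at 18 months, with a log2 difference of 2.72 (adjusted p = 0.00362 in diffSpliceDGE). Set against bin 3, the bin that follows, it was 27.1, 26.7 and 27.04% at 28 months and 5.12% at 18 months. It was higher in all 3 libraries at 28 months, which lay close together. The bin's call was lost without replicate 3 (adjusted p = 0.101), as was that of the gene (adjusted p = 0.137). With first and last tested bins left out the gene was not called, which follows from the setting itself, since bin 2 is the first tested bin. Tmod4 bin 3, picked after its values were seen, had 25.03, 25.4 and 26.5% of the counts of bin 6 at 28 months, against 6.75% at 18 months, but missed the threshold (adjusted p = 0.387 in diffSpliceDGE). At the other end of Tmod1, bin 18 had 364, 353 and 334% of the counts of bin 16 at 28 months and 727% at 18 months. Bin 18 shares 1287 bases with Tstd2 on the opposite strand, whose own counts were 675, 1653 and 584 at 28 months and 823 at 18 months, and it was not called.

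In Actn2, bin 19, counted in ascending coordinate and ninth from the 5′ end, had 0, 1 and 0 counts at 28 months, against 68 counts at 18 months. The bin made 0.153% of the gene's counts at 18 months (exact 95% interval 0.119 to 0.194%). The pooled 28-month share was 0.00471 of the 18-month share (exact 95% interval 0.000118 to 0.0271, counting error only), and the bin's adjusted p was 0.0287 in diffSpliceDGE. The gene itself missed the threshold (Simes adjusted p = 0.0588), and the bin's call was lost without replicate 1 (adjusted p = 0.542), without replicate 3 (adjusted p = 0.417) and with limma voom (adjusted p = 0.319). Without replicate 2 the gene was called (Simes adjusted p = 1.75e-09). Which piece of Actn2 this is could not be placed.

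Bins of the remaining genes missed the threshold, some with groups that did not overlap. Capza2 bin 19 (chr6:17660729-17660748, plus strand) adds 20 bases before an exon, in coding transcripts, and had 16, 23 and 20 counts at 28 months, against 122 counts at 18 months. It is shown because a coding exon would be lengthened by it, with the 20 bases in capitals, ending in AG, the letters of a usual 3′ splice site.
Capza2 bin 19 and its flanks: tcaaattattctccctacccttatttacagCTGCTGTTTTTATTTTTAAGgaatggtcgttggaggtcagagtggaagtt

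Its log2 difference in usage was -2.50 (adjusted p = 0.0657 in diffSpliceDGE). The bin was called with limma voom (adjusted p = 2.03e-05) and without replicate 2 (adjusted p = 0.00819), and the gene in 3 of 9 settings. Relative to bin 20 the bin held 0.671, 0.840 and 1.03% at 28 months against 5.84% at 18 months. In Actn3, bin 7 had 802, 217 and 752 counts at 28 months and 1243 counts at 18 months. Relative to its neighbours it held 1.03, 1.22 and 1.01% at 28 months and 4.33% at 18 months, so the 28-month libraries were alike here although their Actn3 levels were not (log2 -2.16, adjusted p = 0.988 in diffSpliceDGE). Nexn bin 9 went the other way, with 284, 157 and 205 counts at 28 months, against 76 counts at 18 months (log2 1.61, adjusted p = 0.350 in diffSpliceDGE). Without replicate 2 both were called, Actn3 bin 7 at an adjusted p of 1.92e-13 and Nexn bin 9 at 3.03e-06, in a fit that called 30.5% of all genes. The smallest p of the 3-bin genes Lmod2 and Lmod3 and of Capza1, of which 2 bins could be tested, gave adjusted p of 1.00 each.

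**Figure D5:**
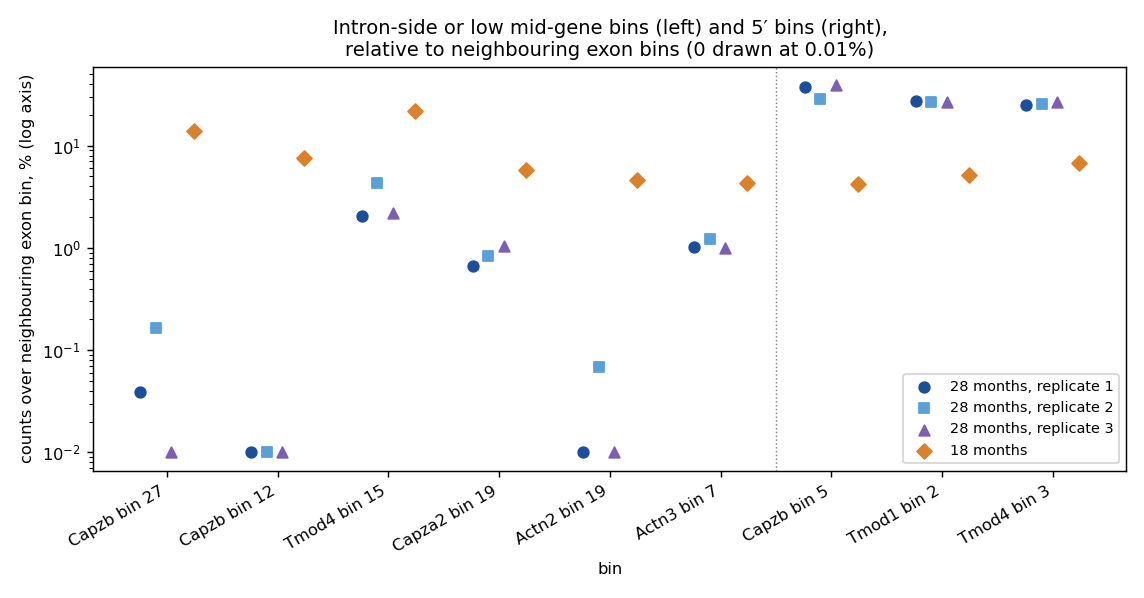
Counts of 9 bins relative to neighbouring exon bins (%, log axis, 0 drawn at 0.01%), 1 point per library, with intron-side or low mid-gene bins left of the dotted line and 5′ bins right of it. The 18-month point is above all 28-month points left of the line (13.8% for Capzb bin 27). Right of the line it is below them (4.19% for Capzb bin 5). The 9 bins are a selection, and bins that break this split were not drawn. Tmod4 bin 8 had 4.88, 2.68 and 0.759% at 28 months and 3.74% at 18 months, within the range. Nexn bin 9 had 10.6, 5.37 and 8.49% at 28 months and 3.71% at 18 months, the lowest.

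Other genes of thin filaments and Z-discs were taken from a list. Of 60 listed genes, 56 were found as single gene units, 53 were tested, and 0 were called in edgeR. Their median log2 difference was -0.01, and 26 were higher and 27 lower in estimate. The 18-month value was above all 28-month values for 18 of the 53 (26.4% of all genes tested) and below all of them for 7 (25.4% of all genes tested). Of the 23 tested genes on the Z-disc list these counts were 9 and 0, beside the same 26.4 and 25.4%. That list is wider than the Z-disc itself, and Jph1, not a Z-disc protein, is among the 9.

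Among the relatives of the 10, the neuronal tropomodulin Tmod2 had 8.13, 8.52 and 9.54 CPM at 28 months, against 19.5 CPM at 18 months. The 28-month libraries were tight and all lower, at a log2 difference of -1.16 ± 0.26 (SE, unadjusted p = 0.00616, adjusted p = 0.859 in edgeR). The 8 Schwann cell markers, of the glia of nerves, together had 193, 104 and 158 CPM at 28 months, against 344 CPM at 18 months, with 0 of 8 higher in estimate at 28 months, and their part in the Tmod2 value was not tested. Actn4, a non-muscle alpha-actinin, had 97.3, 120 and 94.8 CPM at 28 months, against 60.2 CPM at 18 months (log2 0.79 ± 0.31, adjusted p = 0.859 in edgeR). Actn1, the other non-muscle form, had 12.1, 16.8 and 16.3 CPM at 28 months, with 10.9 CPM at 18 months. The 28-month libraries were higher for both. The 8 macrophage markers, of a cell type that uses non-muscle actinins, together had 98.1, 155 and 168 CPM at 28 months, against 60.0 CPM at 18 months, and their part in these values was not tested.

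Tmod3, the widely expressed tropomodulin, had 28.7, 36.4 and 31.1 CPM at 28 months, with 34.1 CPM at 18 months, and Lmod1, the smooth muscle leiomodin, had 3.37, 5.65 and 5.02 CPM at 28 months, with 6.26 CPM at 18 months. Capza3, the testis alpha subunit, had no count in any library. Acta1, skeletal actin itself, had 21000, 9335 and 24004 CPM at 28 months, with 14288 CPM at 18 months, with replicate 2 the lowest. Cfl2, the muscle cofilin that severs filaments, had 445, 259 and 390.1 CPM at 28 months, against 491 CPM at 18 months. Mtpn, which encodes the capping protein inhibitor myotrophin, had 25.3, 42.3 and 25.3 CPM at 28 months, with 40.3 CPM at 18 months. None of these 5 expressed genes passed the test.

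Besides Tmod2 and Actn4, 3 of the 53 genes had an unadjusted p under 0.05, which makes 5 of 53, where 4.9% of all genes tested had one. They were picked here after their values were seen, and all had an adjusted p of 0.859 in edgeR. Actc1, cardiac actin, had 51.4, 34.6 and 79.8 CPM at 28 months, against 174 CPM at 18 months. Xirp2, an actin-binding repeat protein of striated muscle, had 982, 620.1 and 921 CPM at 28 months, against 1883 CPM at 18 months. Bag3, a co-chaperone that clears damaged Z-disc proteins, had 32.8, 37.9 and 37.1 CPM at 28 months, against 57.6 CPM at 18 months. All 3 were lower in each 28-month library than at 18 months.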

How the data were processed

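RNA of thigh skeletal muscle was sequenced at 28 months (3 libraries) and 18 months (1 library). The authors deposited unnormalized counts for exonic bins. The submitters' processing notes name bcl2fastq 1.8.3, TopHat2 2.0.4 and the build GRCm38. How bins were counted, on which annotation and strand, is not given in the sources used here. Special entries (5 per table), which name no gene, held 3.36 to 4.56% of all counts at 28 months and 5.20% at 18 months and were left out. TMM factors were 0.877, 1.28 and 0.897 at 28 months and 0.990 at 18 months.

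Bins were summed per gene, and those averaging 10 or more counts were tested with edgeR 4.0.16 (quasi-likelihood, TMM). Exon usage was tested with diffSpliceDGE of edgeR on bins past the same minimum. The threshold was an adjusted p (Benjamini-Hochberg, all genes or bins) of 0.05. With 1 library at 18 months, the spread came from 28 months alone, and the 18-month library is taken to vary equally. Alternatives used DESeq2 1.42.0 and limma 3.58.1 in R 4.3.3. Near copies were sought with BLAST 2.17.0 (at least 200 bases at 90% identity).

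Members, lists and ratios were chosen with earlier results of these data known. Named were all 10 genes, each called bin, the tested bin of smallest p per gene, the isoform bins of Capzb, and fixed relatives.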

Additional observations from a re-analysis of the deposited data

How the results depend on the processing

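No paired analysis was possible because the 18-month group has 1 library. The count of genes called for expression, 0, was 34 with DESeq2 and ranged from 0 to 1799 when 1 library at 28 months was left out, with 0 to 2 of the 10 genes called. Directions turned, without a call, in some settings. With 1 library left out, log2 differences ranged from -0.14 to 0.079 for Tmod1, -0.93 to 0.17 for Lmod2, -0.34 to 0.010 for Lmod3 and -0.32 to 0.38 for Actn2, positive without replicate 2. The log2 difference was 0.00015 for Actn2 with no count filter. With the highest bin of each gene, and scaling recomputed on those bins, it was 0.19 for Lmod2, 0.15 for Lmod3 and 0.031 for Nexn. On the scaling of the gene sums, that bin was above all 28-month libraries at 18 months for Lmod3 (54.9 CPM) and Nexn (92.9 CPM). For Lmod2 (45.5 CPM) it lay within their range. Capzb bin 25 usage was -0.069 with voom. The cause was not tested. Exon usage calls, 389 genes, numbered 176 with bins averaging at least 50 counts, 1765 with voom, 206 without first and last bins, 3375 by F-test, and 171 to 3250 with 1 library left out, with 1 to 7 of the 10 genes called.

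The Capzb intron pieces and Actn2 bin 19 rest on few counts, and the lone 18-month library limits every comparison.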
